A study of Mus musculus with 2 samples.

Results

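Gene expression in regrowing wild-type (WT) mouse liver was compared between 24 h and 36 h after partial hepatectomy, the surgical removal of part of the liver. The comparison covered 8606 of the 19439 named genes on the array, those whose WT signal lay more than 2 background SDs above the local background at both times. A further 1329 genes met that limit at 24 h only, 365 at 36 h only and 9139 at neither time. Both livers came from WT mice 3 months old that had undergone partial hepatectomy, so neither was a resting liver, and no liver without surgery was analysed here. Each time had 1 array, which carried WT RNA labelled with Cy3 and, in its other channel, RNA of Wip1 knockout (KO) mice of the same age and treatment labelled with Cy5. Wip1 is the phosphatase encoded by Ppm1d, whose own spot was not above background in WT liver at either time (raw median 30 over a background of 23.5 at 24 h, and 58 over 28.5 at 36 h). The labels do not give the strain, the sex, the number of animals behind a channel or the clock time of surgery.

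After partial hepatectomy, hepatocytes that were resting re-enter the cell cycle, copy their DNA, divide and restore the mass of the organ while they go on with metabolism and protein secretion. Genes for DNA replication are switched on by E2F factors as cells enter S phase, and genes for mitosis are switched on later, in G2, by the MuvB complex with B-MYB and FOXM1, which binds a promoter element called CHR. In mouse liver the wave of DNA synthesis in hepatocytes precedes the wave of mitosis.

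Expression is given as normalised signal, in arbitrary units, after background correction and after the distribution of the WT channel had been made equal between the arrays. The difference is log2 of the signal at 36 h minus that at 24 h, so that 1 stands for a 2-fold higher signal at 36 h. With 1 array per time there was no replicate error and no test, and a gene was called at a 2-fold difference or more. Only called genes are said below to have risen or fallen. For a gene above background at 1 time only, an estimated fold was taken against its own signal at the other time. Where that signal was dimmer than the dimmest one above background on that array, the latter was used. The estimate is not a strict limit, because it does not use the background spread of the gene's own spot. Array and time cannot be told apart, and in whole liver fewer cells of a type cannot be told apart from less RNA per cell. The spread that could be measured within the arrays was the SD of 0.324 between probes of the same gene, over 958 genes with at least 2 measured probes. The 48 control spots each for 4 housekeeping genes had mean differences of 0.05 ± 0.12 for GAPD, 0.27 ± 0.16 for ACTB, 0.46 ± 0.13 for RPL5 and 0.47 ± 0.11 for LDHA (SD over spots of 1 array pair).

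The tissue carried its labelled identity: all 4 hepatocyte markers on the array (Alb, Ttr, Apoa1 and Trf) were measured, with differences from -0.39 to 0.32. Of other cell types, the 4 measured endothelial markers lay between -0.39 and -0.01, the 7 macrophage markers between -0.25 and 0.72 and the 5 markers of stellate cells and fibroblasts between -0.02 and 0.28. Markers of blood cells did not all go one way. All 3 measured erythroid markers were higher at 36 h, by 0.34 to 1.05, with a summed signal of 20432 at 24 h and 37611 at 36 h. The neutrophil markers S100a8 and S100a9 were higher by 0.74 and 1.02, with a summed signal of 2682 at 24 h and 4724 at 36 h, while Mpo was not above background at either time. On a longer list of 7 measured neutrophil genes, 4 lay above 0 and 3 below, and the summed signal was 37566 at 24 h and 27886 at 36 h, most of it from Lcn2 (-0.67). Of the lymphocyte markers Cd3g was measured, at -0.28, and Cd3e, Cd79a and Lck were not above background at either time. On a longer list of 5 measured lymphocyte genes, 4 lay above 0 and 1, Cd3g, below, with a median of 0.18. A further 5 genes of that list were above background at 24 h only and 1 at 36 h only. The pancreatic genes Prss2, Cpa1 and Pnlip and the muscle genes Acta1 and Ckm were not above background at either time. Of the Y-linked genes, Ddx3y was measured at 597 at 24 h and 947 at 36 h, Usp9y at 226 at 24 h and 167 at 36 h and Eif2s3y at 208 at 24 h and 215 at 36 h, so transcripts of the Y chromosome were above background on both arrays.

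Most genes differed by less than 2-fold. The median difference of all 8606 genes was 0.02, their SD 0.41, and 90% of them lay between the 5th and 95th percentiles of -0.60 and 0.59. At least 2-fold higher at 36 h were 110 genes (1.28%), and at least 2-fold lower were 129 genes (1.50%). Of these 239 called genes, 15 passed 4-fold upward and 11 passed it downward. Of the called genes, 39 had 2 or more measured probes, of which 34 had all probes on the same side of 0 and 16 had every probe past 2-fold. All counts for groups of genes below are to be read beside these shares and beside the 53.2% of all measured genes that lay above 0.

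**Figure D1:**
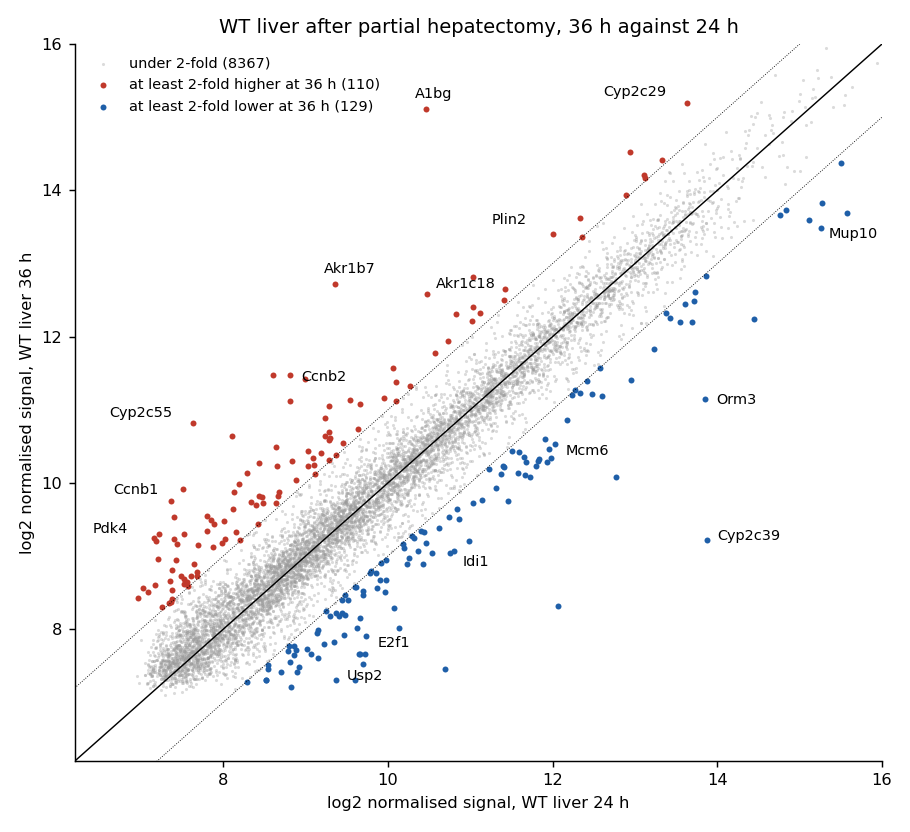
Each point is 1 of the 8606 genes measured in WT liver, with its log2 normalised signal at 24 h on the x axis and at 36 h on the y axis; the solid line marks equal signal and the dotted lines 2-fold. The 110 higher genes (red) and the 129 lower genes (blue) lie outside the dotted lines, with A1bg farthest above and Cyp2c39 farthest below.

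Genes were also grouped into 51 lists by function or cell type. Among lists with at least 9 measured members, the medians for mitosis (0.66) and female-biased expression (0.62) were the highest. Those for cholesterol (-0.93), DNA synthesis (-0.73), origin licensing (-0.64) and male-biased expression (-0.61) were the lowest. The others lay between -0.34 and 0.41, also where single members were called.

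**Figure D2:**
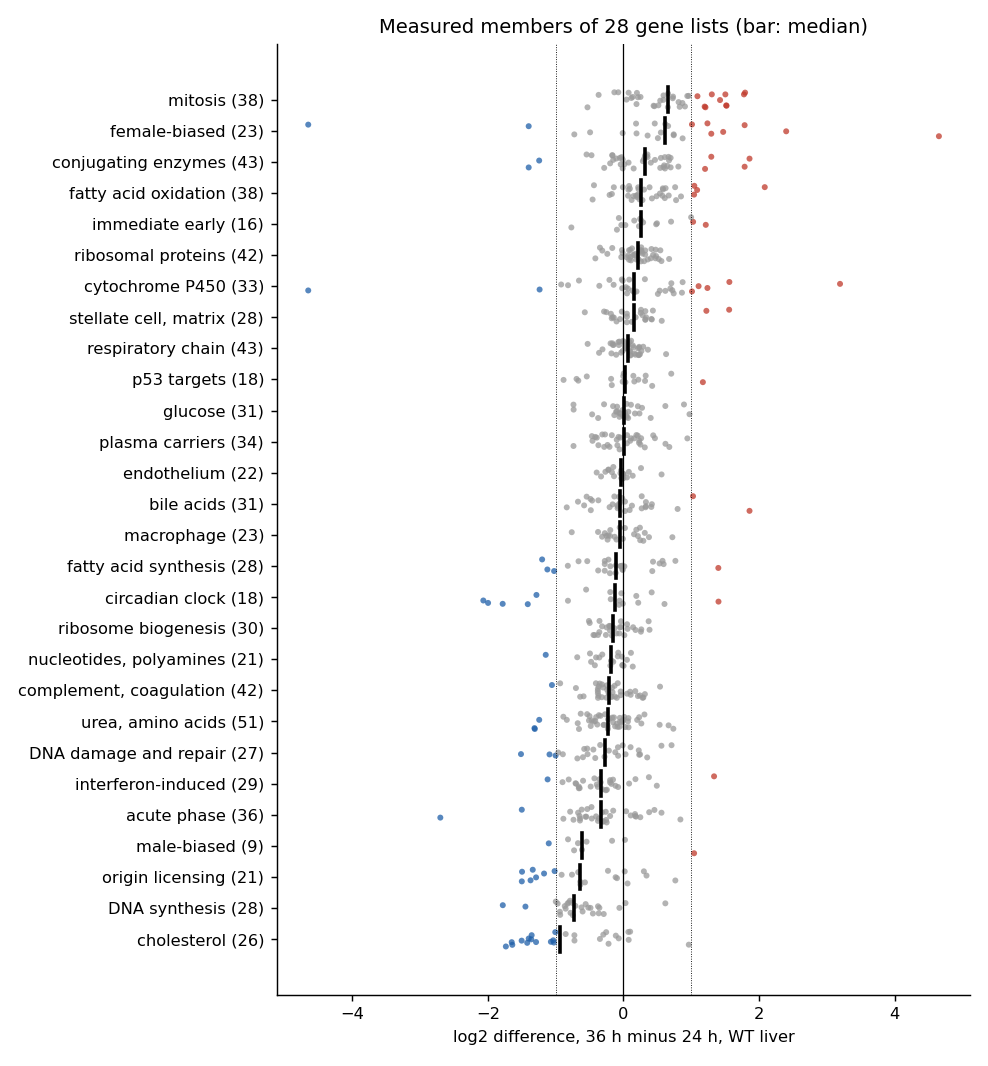
Each row is 1 of 28 lists of genes with its number of measured members, each point the log2 difference (36 h minus 24 h) of 1 member in WT liver, and each bar the median of the list; red and blue points are at least 2-fold higher and lower. Mitosis (median 0.66) stands at the top and cholesterol (median -0.93) at the bottom, while the listed genes of the respiratory chain (median 0.06) have 0 called members.

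Cell cycle genes differed between the times. At 36 h most of the measured genes of mitosis were higher than at 24 h, and most of those that license and copy DNA were lower. Cyclin B, which activates Cdk1 to start mitosis, led the higher group. Ccnb2 was measured at 449 at 24 h and 2836 at 36 h, a 6.31-fold higher signal, and Ccnb1 at 165 at 24 h and 862 at 36 h, which was 5.23-fold higher. The scanner's quality flag was -100 for Ccnb2 at 36 h and for Ccnb1 at 24 h. Their partner kinase Cdk1 stood at 1906 at 24 h and 3793 at 36 h (difference 0.99), just under the 2-fold limit. Cyclin A, which acts in S phase and G2, had a difference of 0.70 for Ccna2. Cyclins of the G1 phase differed in sign among themselves. Ccnd1, the cyclin D that relays growth signals in hepatocytes, was at 1404 at 24 h and 2541 at 36 h (difference 0.86), whereas Ccnd2 and Ccnd3 had differences of -0.17 and -0.40. Ccne2, a cyclin E that drives entry into S phase, fell from 444 to 218 (difference -1.03). Ccne1 was above background at 24 h only, with 328 at 24 h and 184 at 36 h (estimated difference -0.83). The phosphatase gene Cdc25a, which acts at the same step, had a difference of -0.82. Cdc25b, which acts at entry into mitosis, was above background at 36 h only, with 113 at 24 h and 153 at 36 h (estimated difference 0.44).

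Of 51 mitotic genes on the list, all on the array, 38 were measured, and 34 of these lay above 0 and 4 below. Their median was 0.66, against 0.02 for all genes. Of the 38, 10 rose and 0 fell. A further 6 members were above background at 36 h only and 4 at 24 h only, and 3 at neither time. The 4 at 24 h only were not all dimmer at 36 h. Tpx2 had 216 at 24 h and 357 at 36 h, and Fzr1 154 and 196. Ncapg had 153 at 24 h and 151 at 36 h, and Ncaph 494 and 412. The called members spanned mitosis from the kinetochore to cytokinesis. Cenpa, the histone variant that marks centromeres, was at 621 at 24 h and 2129.8 at 36 h (difference 1.78), and Cenpf, a kinetochore protein, at 136 at 24 h and 364 at 36 h (1.42). Aurka, the kinase of the spindle poles, had 702 at 24 h and 1495 at 36 h (1.09), and Birc5, the survivin subunit of the chromosomal passenger complex, 1701 at 24 h and 3934 at 36 h (1.21). Nusap1, which bundles spindle microtubules, rose from 171 to 491 (1.52), and the chromosome-borne motor Kif22 from 253 to 580.0 (1.20). Genes of the central spindle, where cells divide, were among them: the motor gene Kif20a rose from 292 to 1014 (1.79) and Prc1, which crosslinks antiparallel microtubules, from 164 to 404 (1.30). Ube2c, the ubiquitin-conjugating enzyme of the anaphase-promoting complex, was at 1068 at 24 h and 3027 at 36 h, and its 2 probes had differences of 1.50 and 2.49. Cdca3, which triggers entry into mitosis, was at 279 at 24 h and 797 at 36 h (1.52). Cdc20, which activates the anaphase-promoting complex, had 480 at 24 h and 2343 at 36 h, an estimated 4.88-fold higher signal. Its spot was above background at 36 h only. Kif2c, which depolymerises microtubules at kinetochores, was likewise above background at 36 h only, with an estimated 3.42-fold higher signal.

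Other mitotic genes were not called. Mki67, the proliferation marker Ki-67, had a difference of 0.94, the checkpoint kinase gene Ttk 0.91 and Aurkb 0.59, all short of 2-fold. The checkpoint genes Bub3 (0.08) and Mad2l1 (0.14), the kinesin Kif11 (0.20) and the condensin subunits Smc4 (0.12) and Smc2 (-0.37) lay closer to 0. Securin, encoded by Pttg1, was at 3311 at 24 h and 3141 at 36 h (-0.08). Plk1, Kif23 and Melk were not above background at either time. Outside the list, Knstrn, a spindle protein, rose from 347 to 1239 (1.84), and was chosen after its value was seen.

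**Figure D3:**
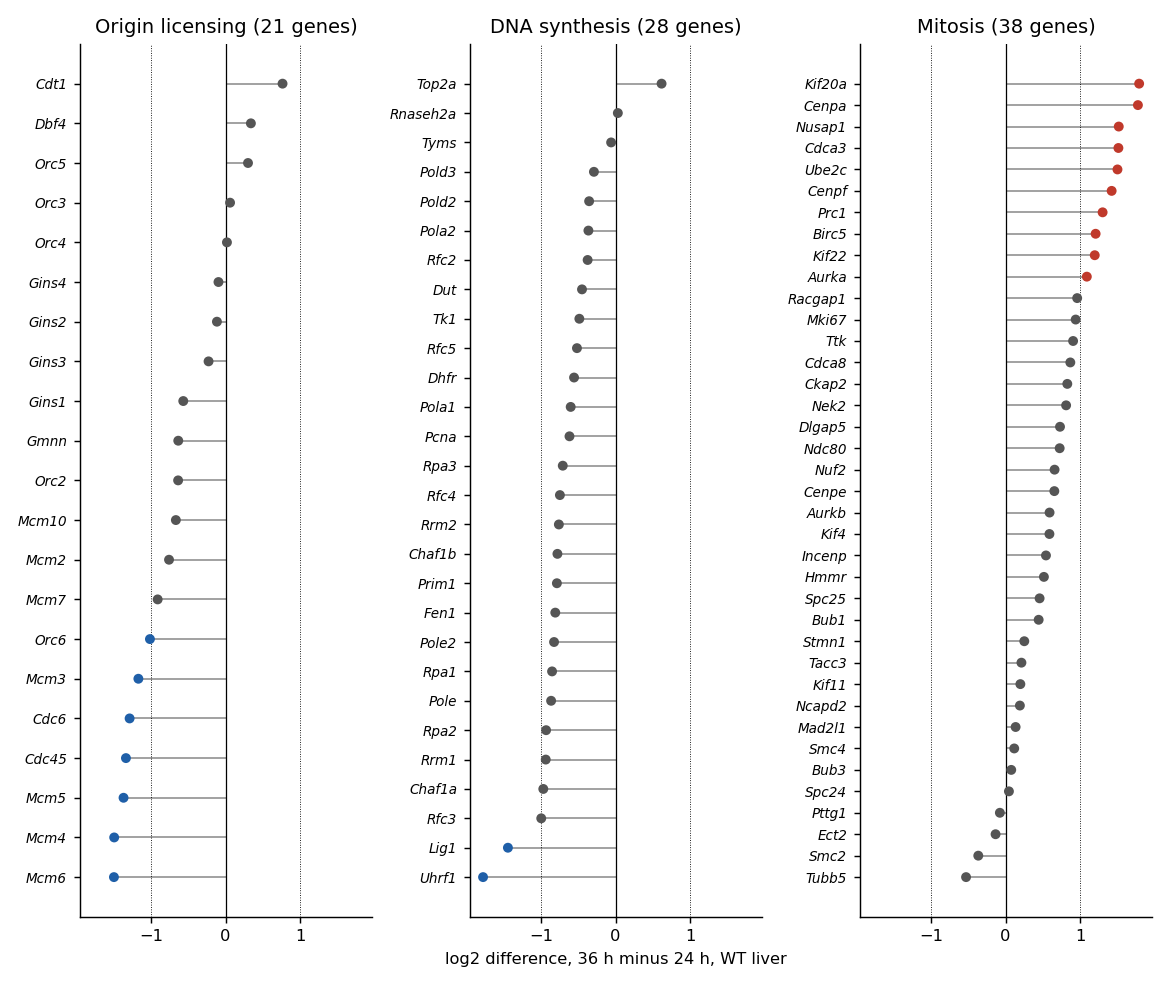
The x axis is the log2 difference (36 h minus 24 h) in WT liver and each point 1 measured gene, in panels for origin licensing (21 genes), DNA synthesis (28) and mitosis (38), with dotted lines at 2-fold. In the mitosis panel 34 genes lie right of 0, in the DNA synthesis panel 26 lie left of it, and in the licensing panel 16.

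Promoter sequences of genes that rose, and of Cdc20, which was not called, are shown because many mitotic genes share the CHR element. RefSeq promoter windows on GRCm38.p6, each from 250 bases before to 50 bases after the gene's start, were found for 31 of the 38 measured mitotic genes. A gene was counted if any of its windows held a match. The letters TTTGAA of the CHR element were present on either strand in 21 of the 31 genes (67.7%). The share was 14.9% of the 6557 measured genes with a window and 20.2% of all 27025 genes with a window. The letters CCAAT were present on either strand in 24 of the 31 (77.4%), against 42.9% of measured genes and 41.1% of all genes. Matches of both motifs can share at most 1 end base, and a match is a description of the window only. In the 6 windows below, printed 5′ to 3′ on the strand of the gene, capitals mark TTTGAA and CCAAT or their reverse complements.
Ccnb2, chr9:70421505-70421804 (- strand): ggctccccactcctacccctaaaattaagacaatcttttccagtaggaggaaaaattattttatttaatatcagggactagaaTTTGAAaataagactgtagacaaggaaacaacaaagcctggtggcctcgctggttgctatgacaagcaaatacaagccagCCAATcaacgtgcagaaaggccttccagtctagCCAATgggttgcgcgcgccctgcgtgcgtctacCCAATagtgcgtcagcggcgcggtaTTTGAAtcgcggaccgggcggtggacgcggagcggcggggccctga
Cenpa, chr5:30666636-30666935 (+ strand): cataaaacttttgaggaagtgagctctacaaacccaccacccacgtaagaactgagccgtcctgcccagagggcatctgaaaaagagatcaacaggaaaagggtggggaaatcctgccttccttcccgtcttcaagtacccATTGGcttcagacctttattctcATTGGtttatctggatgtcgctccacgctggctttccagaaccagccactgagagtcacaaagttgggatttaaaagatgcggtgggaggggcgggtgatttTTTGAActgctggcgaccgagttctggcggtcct
Cdca3, chr6:124829926-124830225 (+ strand): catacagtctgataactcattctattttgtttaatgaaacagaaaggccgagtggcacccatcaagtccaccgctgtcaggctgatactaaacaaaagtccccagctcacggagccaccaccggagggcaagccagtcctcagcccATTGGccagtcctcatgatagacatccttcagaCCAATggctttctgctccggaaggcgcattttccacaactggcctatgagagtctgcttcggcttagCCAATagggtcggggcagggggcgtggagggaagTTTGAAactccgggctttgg
Ube2c, chr2:164769679-164769978 (+ strand): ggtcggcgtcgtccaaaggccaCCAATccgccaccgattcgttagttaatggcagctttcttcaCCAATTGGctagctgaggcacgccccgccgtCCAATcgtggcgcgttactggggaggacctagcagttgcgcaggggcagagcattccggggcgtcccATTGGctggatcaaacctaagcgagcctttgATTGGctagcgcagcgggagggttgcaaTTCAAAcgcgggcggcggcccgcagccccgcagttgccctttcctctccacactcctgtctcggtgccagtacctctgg
Aurka, chr2:172370521-172370820 (- strand): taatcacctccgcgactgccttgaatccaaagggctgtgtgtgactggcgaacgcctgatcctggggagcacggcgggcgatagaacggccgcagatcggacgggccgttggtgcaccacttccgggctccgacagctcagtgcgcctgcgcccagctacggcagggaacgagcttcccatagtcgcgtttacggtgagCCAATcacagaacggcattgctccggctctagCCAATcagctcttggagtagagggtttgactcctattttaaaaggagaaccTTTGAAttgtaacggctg
Cdc20, chr4:118437294-118437593 (- strand): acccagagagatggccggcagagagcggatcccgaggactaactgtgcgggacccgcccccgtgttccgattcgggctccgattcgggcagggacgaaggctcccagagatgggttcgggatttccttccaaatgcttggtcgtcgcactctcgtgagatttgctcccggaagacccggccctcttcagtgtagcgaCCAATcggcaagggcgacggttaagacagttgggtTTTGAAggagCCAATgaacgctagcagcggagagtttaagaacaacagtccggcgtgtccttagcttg

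In these windows Ccnb2 has 2 matches to CHR and 3 to CCAAT, and the other 5 genes have 1 match to CHR each and between 2 and 6 to CCAAT. The windows printed all hold a CHR match, whereas 21 of the 31 measured mitotic genes with a window had one.

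Replication origins are licensed in G1 when the origin recognition complex (Orc), Cdc6 and Cdt1 load the Mcm2-7 helicase, and they fire when Cdc45 and the GINS complex join it. All 23 listed genes of this machinery were on the array and 21 were measured, with a median difference of -0.64. Of these, 16 lay below 0 and 5 above, and 7 fell while 0 rose. All 6 helicase genes were lower. Mcm6 fell from 4172 to 1476 (-1.50), Mcm4 from 1479.6 to 525 (-1.50), Mcm5 from 2532 to 979.5 (-1.37) and Mcm3 from 827 to 368 (-1.17). The remaining helicase subunits Mcm7 and Mcm2 had differences of -0.91 and -0.76. The loader Cdc6 fell by 1.29 on the log2 scale and Cdc45 by 1.34. Of the recognition complex, Orc6 fell from 878 to 434 (-1.02), while Orc5, Orc3 and Orc4 had differences of 0.30, 0.06 and 0.02. Cdt1 was highest on the list, at 824 at 24 h and 1400.0 at 36 h (0.77), and its inhibitor geminin (Gmnn) had a difference of -0.63. GINS subunits ranged from -0.57 for Gins1 to -0.10 for Gins4.

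DNA synthesis genes, which encode polymerases, fork proteins and the enzymes of deoxynucleotide supply, had a median of -0.73 over 28 measured of 30 on the array. Of the 28, 26 lay below 0, 2 fell and 0 rose. The called genes were Uhrf1, which recruits the maintenance DNA methyltransferase behind the fork, from 2023 to 589 (-1.78), and Lig1, the ligase that joins Okazaki fragments, from 3058 to 1123 (-1.45). Most of the rest lay between these and 0. The clamp loader subunit Rfc3 was at 1876 at 24 h and 939.6 at 36 h, just under the 2-fold limit, the chromatin assembly subunit Chaf1a had a difference of -0.97, and the ribonucleotide reductase subunits Rrm1 and Rrm2 had -0.94 and -0.76. The sliding clamp Pcna, at 9559 at 24 h and 6226 at 36 h, differed by -0.62. Thymidylate synthase (Tyms, -0.06) and Rnaseh2a (0.03) stayed near 0, and topoisomerase Top2a, which is also needed to separate chromosomes in mitosis, was at 509 at 24 h and 781 at 36 h (0.62). Outside the list, the chromatin remodeller Hells fell by 1.54, and was chosen after its value was seen.

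E2f1, the transcription factor that activates genes for S phase, fell from 853 to 240.1 (-1.83), and the mean over its measured probes was -1.16. It was the only member of the list of CDK inhibitors, E2F factors and pocket proteins that was called, out of 14 measured with a median of -0.31. Its partner Tfdp1 had a difference of -0.87 and the pocket protein Rbl1 -0.74, while E2f8, a repressor of the same genes, had -0.42. The CDK inhibitor p21, encoded by Cdkn1a, was at 798 at 24 h and 1002 at 36 h (0.33). Cdkn2c, which inhibits Cdk4, was at 1507 at 24 h and 1524 at 36 h (0.02).

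Windows of replication genes are shown for their E2F matches. One of the octamers TTTCCCGC, TTTCGCGC, TTTGGCGC and TTTGCCGC was present on either strand in 8 of the 16 licensing genes with a window (50%). The same held for 6 of 25 DNA synthesis genes (24%), against 4.64% of measured genes and 2.6% of all genes with a window. Of the mitotic genes with a window, 1 of 31 had such a match. The octamers can overlap each other. Matches are in capitals in the windows of 3 helicase genes that fell.
Mcm6, chr1:128359656-128359955 (- strand): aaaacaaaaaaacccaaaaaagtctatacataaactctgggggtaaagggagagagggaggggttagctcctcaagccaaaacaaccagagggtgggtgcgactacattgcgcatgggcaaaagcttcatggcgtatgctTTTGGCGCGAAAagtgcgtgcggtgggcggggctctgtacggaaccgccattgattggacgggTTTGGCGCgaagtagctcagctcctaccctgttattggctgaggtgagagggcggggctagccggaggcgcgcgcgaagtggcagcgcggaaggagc
Mcm5, chr8:75109259-75109558 (+ strand): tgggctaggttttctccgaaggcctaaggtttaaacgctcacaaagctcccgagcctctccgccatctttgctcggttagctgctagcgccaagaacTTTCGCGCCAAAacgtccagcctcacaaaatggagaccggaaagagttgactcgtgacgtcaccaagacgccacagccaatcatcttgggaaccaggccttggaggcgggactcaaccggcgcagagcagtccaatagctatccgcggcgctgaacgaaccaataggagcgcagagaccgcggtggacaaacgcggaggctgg
Mcm3, chr1:20820263-20820562 (- strand): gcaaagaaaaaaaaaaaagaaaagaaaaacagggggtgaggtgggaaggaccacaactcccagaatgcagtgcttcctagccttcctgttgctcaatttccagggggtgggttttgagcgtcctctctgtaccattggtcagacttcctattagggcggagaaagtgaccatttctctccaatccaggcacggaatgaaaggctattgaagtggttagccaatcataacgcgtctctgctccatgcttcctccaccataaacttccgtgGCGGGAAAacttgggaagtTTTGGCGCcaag

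The Mcm6 window holds 3 such matches and those of Mcm5 and Mcm3 hold 2 each, and each of the 3 windows has 0 matches to TTTGAA.

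Genes of the DNA damage response had a median of -0.28, and 3 of 27 measured members fell while 0 rose. Among them, the checkpoint kinase gene Chek1, which responds to stalled replication forks, fell from 649 to 228 (-1.51), and Topbp1, which activates the kinase ATR upstream of it, from 466 to 219 (-1.09). A further 7 members were above background at 24 h only and 0 at 36 h only, against 1329 and 365 over all genes. Their estimated log2 differences were -0.70 for Brca1, -0.67 for Blm, -0.64 for Exo1 and -0.53 for Fanca. Those of Parp1, Chek2 and Ddb1 were -0.25, -0.13 and -0.04. The p53 gene itself (Trp53) was at 360.2 at 24 h and 341 at 36 h (-0.08). Of 18 measured p53 targets, whose median was 0.02, only Gadd45a passed 2-fold, from 284 to 641 (1.17), while Mdm2 (-0.01), Ccng1 (0.42) and Bax (0.16) stayed under it. Gadd45a encodes a protein that responds to DNA damage and other stresses.

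In the Wip1 KO channel of the same arrays the median had the opposite sign for mitosis and the same sign for both replication lists, though single genes differed from this. On the 22 mitotic spots measured in both genotypes, the median was 0.62 in WT and -1.12 in Wip1 KO, and 0 of the 22 lay above 0 in Wip1 KO. On the 17 licensing spots the medians were -0.64 in WT and -1.07 in Wip1 KO, and on the 23 DNA synthesis spots -0.62 and -1.05. Ccnb2 had a difference of -1.21 in Wip1 KO and Mcm6 one of -1.57. These differences between genotypes were not tested.

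Signals that drive hepatocyte growth showed few called genes. Of 16 measured immediate early genes, 12 lay above 0 (median 0.25) and 2 passed 2-fold: Dusp6, a phosphatase induced by ERK signalling, from 1516 to 3517 (1.21), and Ier3 from 625 to 1275 (1.03). Klf10, a gene induced by TGF-beta, lay at the limit with 313 at 24 h and 626 at 36 h. Jun (0.16), Myc (0.29) and Egr1 (0.48) differed less, and Cebpb, a factor for hepatocyte genes, was at 6148 at 24 h and 3610.4 at 36 h (-0.77). Among genes of the growth hormone and IGF axis, Igfbp1, an insulin-repressed binding protein secreted early in liver regrowth, rose from 1816 to 5056 (1.48). Socs2, a target of growth hormone signalling that also dampens it, rose from 742 to 2253 (1.60), and Cish, another such target, was at 180.0 at 24 h and 328 at 36 h (0.86). Socs3, induced by interleukin-6, was at 4656 at 24 h and 2701 at 36 h (-0.79). Igf1 (-0.10) stayed near 0. Ghr had a difference of -0.18, with values from -0.81 to -0.04 over the alternative settings. Of growth factors and their receptors, 17 of 38 were measured and Egfr was the only called gene, at 5479 at 24 h and 2677 at 36 h (-1.03), but its 3 probes ranged from -1.03 to -0.03 and their mean was -0.37. Hgf and its receptor Met were above background at 24 h only, but both were dim and their estimated differences were under 2-fold. Hgf had 227 at 24 h and 183 at 36 h (-0.31), and Met 192 and 137 (-0.48). Id1, a target of BMP signalling, rose from 600.2 to 1893 (1.66).

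The machinery of growth in mass stood close to its 24 h level. Of 42 measured ribosomal protein genes, 34 lay above 0 and 0 passed 2-fold, with a median of 0.21 and a range from -0.41 (Rps29) to 0.67 (Rpl34). Of 30 measured genes for ribosome assembly, 21 lay below 0 and 0 passed 2-fold, with a median of -0.15. Nop56, a core protein of the enzymes that modify ribosomal RNA, had the lowest difference among them, -0.51, and Npm1 had -0.38. Genes for nucleotide and polyamine synthesis had a median of -0.18 over 21 measured, with 17 below 0. Amd1, a key enzyme of polyamine synthesis, fell from 663 to 299.6 (-1.15), and it was the only called one. The 43 measured genes on the list of the respiratory chain, which is not complete, ranged from -0.53 (Sdhd) to 0.63 (Ndufb5) with a median of 0.06, and Uqcrfs1, which is not on the list, is given further on. The 30 measured proteasome genes lay within -0.28 (Psma4) and 0.18 (Psmd4), apart from Psmd1, which fell by 1.55 in WT and by 1.18 in the other channel of the same spot. Of cytoskeletal genes, Tubb6 was at 2428 at 24 h and 4482 at 36 h (0.88) and Actb at 20640.0 at 24 h and 28724 at 36 h (0.48), neither of them called.

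Cholesterol synthesis was the metabolic pathway with the most called genes. It is controlled by SREBP-2, a membrane-bound factor that is released to switch on the pathway when sterols are scarce. Of 29 genes on the array, 26 were measured, with a median of -0.93. Of these, 22 lay below 0, 13 fell and 0 rose. Called genes ran along the pathway. Hmgcs1, at its entry, fell from 1313 to 537 (-1.29). In the isoprenoid part, Idi1 fell from 1780.4 to 535 (-1.73) and Fdps from 11967 to 4683 (-1.35). At the step to squalene, Fdft1 fell from 3283 to 1247 (-1.40), and squalene epoxidase, Sqle, from 2912 to 1387 (-1.07). Of the enzymes that turn lanosterol into cholesterol, Cyp51 fell from 3377 to 1078 (-1.65). Msmo1, named Sc4mol in the files, fell from 4031 to 1294 (-1.64), Nsdhl by 1.50 and Sc5d by 1.42. Mvk (-0.85) and Pmvk (-0.72) were lower without passing 2-fold. Lss (-0.30), Ebp (-0.22), Tm7sf2 (0.08) and Mvd (-0.07) lay closer to 0.

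Members that sense or move sterols differed in sign. Insig1, which holds SREBP in the endoplasmic reticulum and is itself a target of it, fell from 890.1 to 443 (-1.01). Stard4, a sterol carrier, was above background at 24 h only and an estimated 6.16-fold lower at 36 h. On the other side was Insig2, the isoform that is not induced by SREBP, at 2580.3 at 24 h and 5034 at 36 h (0.96). Srebf2 itself was at 285 at 24 h and 224 at 36 h (-0.35), its escort Scap had a difference of -0.25 and the esterifying enzyme Soat2 one of -0.11, and the cholesterol transporters Npc1 and Npc2 had differences of 0.10 and 0.07. In the Wip1 KO channel the median over the 23 spots measured in both was -0.11, against -1.03 in WT, with Idi1 at 0.34 and Hmgcs1 at -1.11, and the difference between genotypes was not tested.

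Windows of 2 cholesterol genes are printed because promoters of SREBP targets pair a sterol element with a CCAAT box, the site of NF-Y. The letters CCAAT were present on either strand in 16 of the 17 cholesterol genes with a window (94.1%), against 42.9% of measured genes. The sterol element as searched, TCACNCCAC on either strand, was present in 1 of the 17, against 1.51% of measured genes and 1.44% of all genes. Capitals mark both motifs.
Idi1, chr13:8885356-8885655 (+ strand): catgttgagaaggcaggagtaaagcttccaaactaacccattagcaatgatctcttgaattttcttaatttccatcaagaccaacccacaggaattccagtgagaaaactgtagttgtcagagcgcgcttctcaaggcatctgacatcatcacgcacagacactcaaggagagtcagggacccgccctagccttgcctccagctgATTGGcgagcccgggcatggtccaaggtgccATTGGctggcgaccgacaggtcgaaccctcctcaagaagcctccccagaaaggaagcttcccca
Hmgcs1, chr13:119690101-119690400 (+ strand): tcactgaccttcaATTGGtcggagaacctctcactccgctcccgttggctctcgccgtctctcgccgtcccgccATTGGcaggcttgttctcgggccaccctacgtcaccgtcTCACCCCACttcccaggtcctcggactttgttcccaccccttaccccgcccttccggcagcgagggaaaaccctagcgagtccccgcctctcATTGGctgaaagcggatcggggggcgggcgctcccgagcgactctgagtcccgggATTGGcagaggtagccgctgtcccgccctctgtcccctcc

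The Hmgcs1 window holds 1 match to the sterol element and 4 to CCAAT, and the Idi1 window 2 to CCAAT.

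**Figure D4:**
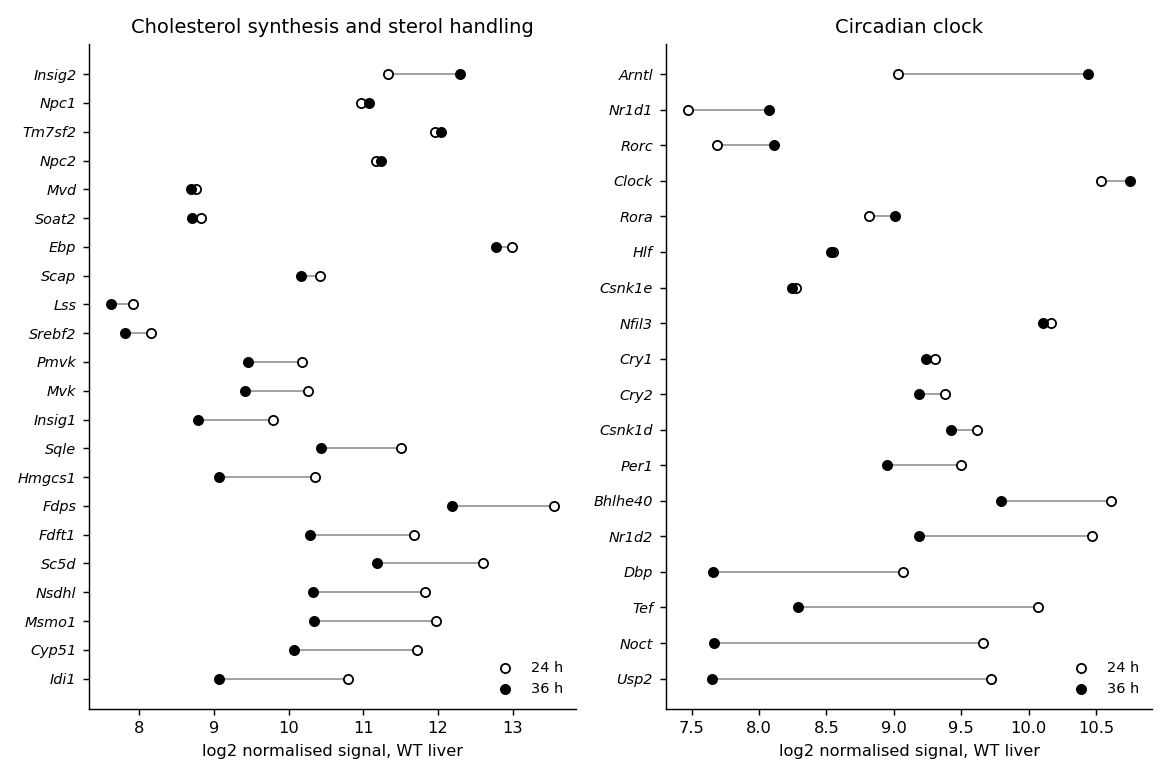
Open circles give the log2 normalised signal in WT liver at 24 h and filled circles that at 36 h for the 22 genes of cholesterol metabolism named in the text (left) and the 18 measured genes of the circadian clock (right), sorted by their difference. In the left panel 18 of 22 filled circles lie left of the open ones, and in the right panel the 6 called genes stand at both ends, with Arntl at the top and Usp2 at the bottom.

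Fatty acid genes split between synthesis and use. Of 28 measured genes for lipid synthesis and storage, whose median was -0.11, 3 fell and 1 rose. Acly, which makes acetyl-CoA for lipid synthesis, fell from 773 to 380.5 (-1.02), and Thrsp, a lipogenic gene under thyroid hormone, from 732 to 336 (-1.12). Lpl, lipoprotein lipase, fell from 1828 to 796 (-1.20). Fasn (-0.28), Acaca (-0.28) and Scd1 (0.01) differed less. Plin2, which coats lipid droplets, rose from 4122 to 10874 (1.40). Hilpda, another droplet protein, rose from 279.8 to 939.6 (1.75), and was chosen after its value was seen. Regrowing liver is known to store fat in droplets in the first days.

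Genes of fatty acid oxidation and ketogenesis had a median of 0.26, and 32 of 38 measured members lay above 0, of which 4 rose, while 0 fell. Pdk4, which blocks pyruvate from entering the citric acid cycle, rose from 143 to 607 (2.08). The targets of PPAR-alpha were among the others: Ehhadh, of peroxisomal oxidation, rose from 8931 to 18435 (1.05), and the omega-hydroxylase Cyp4a10 from 10274 to 21821 (1.09). Cyp4a12b, at 153 at 24 h and 315 at 36 h (1.04), had a mean over its probes of 0.68. Ehhadh and Cyp4a10 lay just under 2-fold in some alternatives, with lowest values of 0.98 and 0.95, so that 3 of these 4 calls depend on the setting. Other PPAR-alpha targets stayed short of 2-fold, such as Acaa1b (0.85), Angptl4 (0.76) and Cpt1a (0.08). Ppargc1a, the coactivator of this programme, was above background at 24 h only and an estimated 3.02-fold lower at 36 h.

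In the urea cycle and amino acid breakdown, 38 of 51 measured genes lay below 0 (median -0.23), and 3 fell. They were Cps1, which starts the urea cycle, from 2090.5 to 845 (-1.31), serine dehydratase (Sds) from 4631 to 1866 (-1.31), and tyrosine aminotransferase (Tat) from 13512 to 5712 (-1.24). Tdo2, which degrades tryptophan, had a difference of -0.89 and Bhmt, which remethylates homocysteine, of -0.84. Higher members were Agxt (0.74) and Oat (0.67), both under 2-fold. Genes of glucose metabolism had a median of 0.01 and 0 called of 31. Gluconeogenic Pck1 and Fbp1 had differences of -0.74 and -0.73.

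Genes expressed around the central vein and around the portal tract, which mark metabolic zones of the lobule, lay on opposite sides of 0. Of 16 measured pericentral genes 13 lay above 0 (median 0.41), with Rgn, encoding regucalcin, rising from 8815 to 18888 (1.10). The ammonium transporter gene Rhbg had 0.83, the glutamate transporter Slc1a2 0.71 and Cyp1a2 0.71. Glutamine synthetase (Glul), the most restricted of them, was at 287 at 24 h and 219.9 at 36 h (-0.39), and Cyp2e1 had -0.02. Of 19 measured periportal genes 14 lay below 0 (median -0.15), with Cps1 and Sds, counted above, as its called members.

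Plasma carriers and apolipoproteins were centred on 0, with a median of 0.00 over 34 measured and 0 called. Genes on the list of acute phase proteins and interleukin-6 signalling lay mostly below 0. Of 36 measured genes 26 did so (median -0.34), 2 fell and 0 rose. Orm3, an orosomucoid, fell from 14775 to 2273 (-2.70) and Saa4, a serum amyloid A, from 13275 to 4696 (-1.50). Orm genes are related in sequence, and Orm1 and Orm2 had differences of -0.26 and -0.55. Saa1, of the family of Saa4, had one of -0.62. Lcn2 (-0.67), fibrinogen alpha (Fga, -0.64) and Lrg1 (-0.64) were lower without passing 2-fold. Serpina3n (0.56) and A2m (0.84) were on the other side. Of 42 measured complement and coagulation genes 32 lay below 0 (median -0.21). Among them C8a, of the membrane attack complex, was called at 10616 at 24 h and 5111 at 36 h (-1.05) but not under every setting.

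Of 29 measured interferon-induced genes, 24 lay below 0 (median -0.34). Usp18, which restrains interferon signalling, fell from 1391 to 641 (-1.12), and Parp14 had -0.81. Ifi44 was above background at 24 h only and an estimated 3.07-fold lower at 36 h. Of the 5 members above 0 only Rsad2, encoding viperin, was called, and it rose from 353 to 893 (1.34). Of 17 measured NF-kappa B targets and cytokines, 14 lay above 0 (median 0.24). Il1b, the cytokine of activated macrophages and neutrophils, rose from 404 to 1197 (1.57). Inflammatory and blood cell genes chosen after their values were seen also rose, the neutrophil-attracting chemokine Cxcl3 (2.09), the platelet factor Pf4 (2.13), the granule proteoglycan gene Srgn (1.42) and Clec4d (1.47). Beside these stand the erythroid, neutrophil and lymphocyte markers above, and of the longer neutrophil list, 4 of 15 genes on the array were above background at 36 h only and 0 at 24 h only. The part of blood in these values was not tested. Kupffer cell genes as a list had a median of -0.06 over 23 measured and 0 called, and endothelial genes -0.03 over 22 with 0 called. Of 28 measured matrix and stellate cell genes, 2 passed 2-fold: Ccn1, a target of YAP, from 236 to 696 (1.56), and Tagln, of contractile cells, from 581 to 1357 (1.22). Collagen genes Col1a1 (0.18) and Col1a2 (0.12) lay near 0.

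Drug-metabolising enzymes held the lowest difference of all measured genes, that of Cyp2c39. Of 33 measured cytochrome P450 genes, 5 rose and 2 fell (median 0.16). Cyp2c39 fell from 15002 to 598 (-4.65), and the other channel of the same spot fell by 3.65. Cyp2c55 rose from 198 to 1810.0 (3.19), Cyp2c29 from 12647 to 37349.9 (1.56) and Cyp2b9 from 2732 to 6448 (1.24). Cyp2c members are alike in sequence and probes may detect more than 1 of them. Cyp26a1, which degrades retinoic acid, fell from 1571 to 667 (-1.24), and Por, the electron donor of all microsomal P450 enzymes, was at 4157 at 24 h and 2199.8 at 36 h (-0.92). Cyp3a11 (-0.01) and Cyp2e1 (-0.02) stayed near 0. Conjugating enzymes had a median of 0.32 over 43 measured, of which 4 rose and 2 fell. Sulfotransferases held both ends: Sult2a8 rose from 397 to 1442 (1.86) and Sult3a1 from 2092 to 7223 (1.79), while Sult1e1, which inactivates oestrogens, fell from 9605 to 3646 (-1.40). Of glutathione transferases Gsto1 was called (1.20), and Gstm1, Gstm2 and Gstm3 had 0.67, 0.67 and 0.81. Of aldo-keto reductases, Akr1b7 rose from 656 to 6767 (3.37) and Akr1c18 from 1418 to 6148 (2.12). Akr1c18 reduces progesterone.

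Bile acid genes had a median of -0.05 over 31 measured. Cyp7a1, the rate-limiting enzyme of bile acid synthesis, was above background at 24 h only and an estimated 2.43-fold lower at 36 h. The nuclear receptor gene Nr0b2 (SHP), which represses Cyp7a1, rose from 1096 to 2233 (1.03). The bile salt importer Slc10a1 was at 14329 at 24 h and 9836 at 36 h (-0.54) and the exporter Abcb11 at 5624 at 24 h and 5330.0 at 36 h (-0.08). Among hepatocyte transcription factors Nr1i2 (PXR), a sensor of foreign compounds, fell from 1172 to 552 (-1.09), and Hnf4a had -0.19.

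Genes known for sex-biased expression in mouse liver, which follows the pattern of growth hormone release, differed between the arrays. Of 23 measured female-biased genes 18 lay above 0 (median 0.62), 7 rose and 2 fell. A1bg, a plasma glycoprotein gene, rose from 1408 to 35414 (4.65), and its 4 probes ranged from 4.65 to 5.06. Hao2, a peroxisomal oxidase, rose from 182 to 963 (2.40), with a scanner's quality flag of -100 on both arrays. Sult3a2 rose by 1.30, next to Sult3a1 and Cyp2b9 above, while Cyp2c39 and Sult1e1, also on this list, fell. Cux2 (0.19) and Trim24 (0.74) were not called. Of 9 measured male-biased genes 7 lay below 0, with a median of -0.61, and 1 fell and 1, Cyp4a12b, rose. With no filter on dim spots that median was -0.11 over 14 genes. Nudt7, of peroxisomal coenzyme A turnover, fell from 5134 to 2393 (-1.10), Cyp2d9 had -0.82 and Cyp7b1 -0.67. The probes of Serpina1e disagreed, with -0.61 for the one used and a mean of 0.60 over all. Major urinary proteins, pheromone carriers that male liver makes in quantity, were lower, Mup10 from 48706 to 13217 (-1.88) and Mup5 from 35414 to 12418 (-1.51), with Mup4 at -0.94. Mup genes are near-identical, so their probes may detect more than 1 of them. On the same spots the Wip1 KO channel ran the other way, with medians of 1.57 for 8 male-biased genes, -1.06 for 17 female-biased genes and 1.31 for the 3 Mup genes, a difference that was not tested. The KO spots of Mup5 and Mup10 were saturated at 36 h, so the last median, which is Mup5's value, is only a lower limit. Of the P450 and conjugating genes called higher, Cyp2b9, Cyp2c40, Sult3a1 and Sult3a2 are on the female-biased list. The sex of the animals is not given, and its part in these values was not tested.

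**Figure D5:**
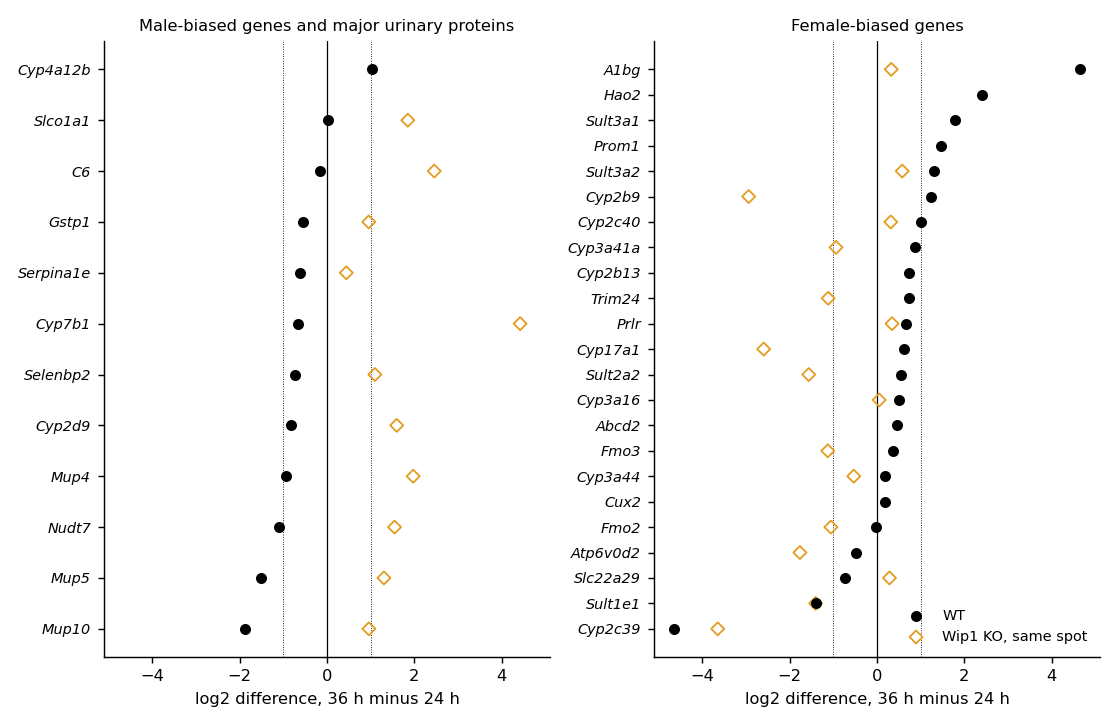
The x axis is the log2 difference (36 h minus 24 h), filled circles are WT liver and open diamonds the Wip1 KO channel of the same spot, where it was above background at both times, with male-biased and Mup genes on the left and female-biased genes on the right. All diamonds on the left lie right of 0, whereas 10 of the 12 filled circles there lie left of it.

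Circadian clock genes held called members at both ends, and the times after surgery differ by 12 h. Of 18 measured genes 5 fell and 1 rose (median -0.13). Arntl, which encodes the activator BMAL1, rose from 524 to 1385 (1.40). The output factors of the PAR bZIP family fell, Dbp from 537 to 202 (-1.41) and Tef from 1076 to 313 (-1.78), while Hlf of the same family had -0.01. Nr1d2, a repressor of Arntl, fell from 1415 to 581 (-1.28), but its relative Nr1d1 was at 177 at 24 h and 270.1 at 36 h (0.61). Rhythmic Usp2, a deubiquitinase, fell from 844 to 201 (-2.07), and Noct, a nocturnally expressed phosphatase, from 809.8 to 203 (-1.996). The scanner's quality flag of the Usp2 spot was -100 on both arrays. Per1 (-0.55), Bhlhe40 (-0.82), Cry1 (-0.06) and Clock (0.22) were not called, and Per2, Per3 and Npas2 were not above background at either time. Arntl, Nr1d2 and Tef had the same sign in the Wip1 KO channel, at 2.71, -2.46 and -1.26. Time of day and hours since surgery cannot be told apart in this design, also for sterol and bile acid genes, which are known to follow the clock in liver.

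Stress programmes showed isolated called genes. Heat shock and chaperonin genes had a median of -0.07 over 26 measured, with 0 called, and the antioxidant list one of 0.08 over 21 with 0 called, Hmox1 being highest at 0.87. In the unfolded protein and amino acid response, Psat1, of serine synthesis, rose from 235 to 559 (1.25), Creld2 lay at the limit of 2-fold at 5253 at 24 h and 10507 at 36 h, and Manf had 0.78. Derl3, of the degradation pathway of the endoplasmic reticulum, fell from 1725 to 526 (-1.71), and its probes had -1.71 and -1.13. Hspa5 (0.36) and Ddit3 (-0.08) were not called. Apoptosis genes had a median of 0.09 over 19 measured with 0 called, and Bak1 was highest at 0.75.

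Of the 239 called genes, 139 belonged to no list. Among those brighter than the median gene, Pcyt1a, the rate-limiting enzyme of phosphatidylcholine synthesis, rose from 509 to 2727 (2.42), and Enpp2, which makes lysophosphatidic acid, fell from 3557 to 1200.4 (-1.57). The antimicrobial peptide gene Leap2, chosen after its value was seen, rose from 2093 to 5412 (1.37). Fshb, a pituitary hormone gene, had a signal of 7006 at 24 h and 1079.8 at 36 h (-2.70) from a single probe, and the Wip1 KO channel of the same spot had 0.28. For some genes called on 1 probe, both channels of the spot differed in the same direction. Uqcrfs1, of the respiratory chain, fell from 4291 to 318 (-3.75), while the raw KO signal of its spot went from 5128 to 223 and the scanner's quality flag was -100 on both arrays. Mtss1 rose by 2.87 in WT and 2.64 in Wip1 KO, with its other 2 probes not above background, and Abhd14b by 2.30 and 4.21. Whether these values come from the spot or from the tissue was not tested.

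Genes above background at 1 time only had the estimated folds defined above, which are not strict limits. By these estimates 39 of 365 were at least 2-fold higher at 36 h, and 49 of 1329 at least 2-fold lower. The highest estimates were 21.1-fold for Sap30l, 18.9-fold for Itgb1 and 14.0-fold for Bpnt2. In the KO channel of these spots the raw signal went from 20.5 to 1585, from 10.5 to 2731 and from 54 to 1254. In the other direction, Mrpl47 was an estimated 8.99-fold and Cib3 an estimated 8.02-fold lower at 36 h.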

How the data were processed

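The deposited files were scanner output of 2-colour arrays, per the file headers from LuxScan, and held the median intensity of each spot and of its local background at 532 nm (Cy3, WT) and 635 nm (Cy5, Wip1 KO), not normalised by the authors. Per the labels, total RNA was reverse-transcribed with dye-labelled nucleotides. The deposited table of KO over WT ratios was not used. Of 33696 spots, 1776 were controls, and 7528 of the 31920 gene probes had no name. Of 19498 distinct names, 14166 matched a RefSeq symbol, 3897 a synonym, 62 several genes and 1373 none, and these last kept the name in the files. Above background were 41.4% of gene probes at 24 h and 36.8% at 36 h.

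The 532 nm channel was background-corrected in limma 3.58.1 (R 4.3.3) with normexp and an offset of 50, which shrinks differences of dim genes, and the gene probes were quantile-normalised between both arrays. A gene took the value of its brightest probe above background (2 background SDs) at both times. A gene above background at 1 time only got a bound, the estimated fold defined above, which is not a strict limit. The KO channel, treated the same way, is given on the same spots only. There was no dye swap, and 2 arrays limit the precision. The procedure was tested on simulated data. Lists were summarised with Python 3.11.15, numpy 2.4.6 and pandas 2.3.3, and plots made with matplotlib 3.10.9. Promoter windows are RefSeq's on GRCm38.p6, with motifs searched by their letters on both strands.

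The genes and lists were chosen with earlier results of these data known. Named genes were the 15 highest and 15 lowest among genes brighter than the median, up to 5 members of each list that differ most in the direction of its median, up to 2 called members in the other direction, the 5 highest bounds each way, and the cyclin, clock and sex chromosome lists. Other list members are given as examples of the rest and were chosen after their values were seen. Some members of the lists are counted but not reported here by name. Alternatives changed the normalisation, background correction, filter, probe rule, bounds and spot flags.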

Additional observations from a re-analysis of the deposited data

Results flagged for a closer look

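For 4 lists, the medians of WT and of the Wip1 KO channel on the same spots lay on opposite sides of 0, each by 0.5 or more. The mitosis list had a median difference (36 h minus 24 h) of 0.62 in WT and -1.12 in Wip1 KO over 22 genes. Major urinary protein genes had -1.51 in WT and 1.31 in Wip1 KO over 3 genes. The KO spots of Mup5 and Mup10 were saturated at 36 h, so 1.31 is a lower limit. Male-biased genes had -0.64 in WT and 1.57 in Wip1 KO over 8 genes, and female-biased genes had 0.55 and -1.06 over 17 genes. With 1 array per time, none of these differences between genotypes was tested, and genotype and dye cannot be told apart.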

How the results depend on the processing

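With 1 array per time, no array could be left out, and no paired analysis was possible because the groups hold 1 sample each. Over 10 alternatives, the number of genes called higher ranged from 78 (a filter of 4 background SDs) to 187 (plain background subtraction), against 110, and the number called lower from 91 to 199 under the same settings, against 129. With no filter on dim spots, 196 genes were called lower. No other setting moved a count by more than 1.5 times, including spots with a quality flag of 100 on both arrays (83 higher and 104 lower), which was chosen after seeing the data. Of the list medians, with no filter that of pancreas and gut genes was 0.076 and that of male-biased genes -0.11. Another 508 list medians moved by less than the SD between probes, 0.324. The sign of the median changed under some setting for 12 of 51 lists, with main values between -0.11 and 0.18. The median for mitosis ranged from 0.52 to 0.85, licensing from -0.76 to -0.60, DNA synthesis from -0.80 to -0.66 and cholesterol from -1.02 to -0.85. Of 119 called genes that the naming rule or the text names, 74 passed 2-fold under all 10 alternatives, 37 had no value under some of them because their spots did not pass the filter or flag, and 9 fell short of 2-fold under some (C8a, Creld2, Cyp2c40, Cyp4a10, Cyp4a12b, Egfr, Ehhadh, Hbb-b1 and Tagln). Several called genes had a quality flag of -100 on 1 array, among them Ccnb2, Kif20a, Cdca3, Cdc6 and Cdc45 at 36 h. Ccnb1 and Pdk4 had it at 24 h. Where a value was given, 0 changed sign. The causes were not tested. At 36 h 36.8% of probes were above background, so differences of genes dimmer than that could not be measured.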
